A study of Rattus norvegicus with 14 samples.

Results

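The L-type calcium channel genes described here are 9 symbols in the expression tables of rat hippocampal neuron and astrocyte cultures, chosen by name: the pore genes Cacna1c and Cacna1d, the α2δ genes Cacna2d1, Cacna2d2 and Cacna2d3, and the β genes Cacnb1, Cacnb2, Cacnb3 and Cacnb4. All 9 were listed in both tables, among 18239 genes for neurons and 31791 for astrocytes, and all 9 passed the minimum mean of 10 normalized counts in both cultures. The study asked how allopregnanolone (Allo), a neurosteroid that acts on GABA-A receptors, affects neurons and astrocytes through calcium. It blocked L-type channels pharmacologically in its functional assays. From the neuron RNA-seq it also listed Cacna2d3 among the calcium signaling genes significantly changed by Allo. That list held Cacna1e, Itpr2, Ryr2, Ryr3, Atp2b3 and Slc8a2 as well, which are read below as neighbours of the channel. The comparisons below ask whether the transcripts of these channels differed between cultures and with Allo.

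An L-type calcium channel is built around a pore-forming α1 subunit, which senses membrane voltage and carries the binding site of dihydropyridine blockers such as nifedipine. Cacna1c and Cacna1d encode the pores that prevail in the brain, where calcium entering through them after depolarization is known to signal to CREB-dependent transcription. The α2δ subunits lie on the outer face of the membrane and raise the number of channels at the surface, whereas the cytosolic β subunits bind the pore subunit, protect it from degradation and shape its gating. Auxiliary subunits are not private to L-type channels, since N-, P/Q- and R-type channels use the same α2δ and β genes.

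The 14 libraries were all of embryonic day 18 Sprague Dawley rat hippocampus and no group carried a genetic change. Neuron libraries were of cultures on day 10, held for 4 h in AM medium, a medium with B27 supplement reduced to 0.2% that the study uses as an aging model, and then for 16 h with vehicle (AM-Veh, 0.001% ethanol) or 100 nM Allo (AM-Allo). Astrocyte libraries were of cells enriched from mixed glia by shaking, held for 24 h in their own AM medium with 10% charcoal-stripped serum and then for 24 h with vehicle or 100 nM Allo. Neurons had 4 libraries in each group, numbered 1-1, 1-2, 2-1 and 2-2, and astrocytes had 3. What the first part of the neuron number marks, and whether libraries came from separate dissections, are not given in the sources used here, so p-values measure the spread between these libraries, which may be technical. The samples were grouped from their labels.

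The values are normalized counts, the authors' estimated reads per gene after division by their scaling factors. From the spacing of the smallest values, libraries held 19400000 to 25300000 reads on genes in neurons and 22200000 to 27900000 in astrocytes, and 1 read was worth 0.861 to 1.15 normalized counts. Markers of several cell types were present in both cultures. In neuron cultures, the 9 neuron markers listed summed to 54526 to 60889 normalized counts in AM-Veh, with Map2 the most abundant, while 10 astrocyte markers summed to 234125 to 285075, with Gfap at a mean of 94233. Oligodendrocyte lineage markers summed there to 52725 to 56767. In astrocyte cultures, astrocyte markers summed to 270026 to 283874 and mesenchymal and mural markers to 112590.0 to 133194 in AM-Veh. Neuron markers still summed to 28876 to 29367, mostly Stmn2 at a mean of 21790.3, and the neuronal Rbfox3, Nefl and Nefm had means under 10. In such bulk samples, fewer cells of a type and less RNA per cell cannot be told apart.

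Promoter sequence was matched by symbol in RefSeq (build GRCr8) for 7 of the 9 genes, as the 250 bases before each listed start. Cacnb1 and Cacnb4 had no entry. Shown are the windows of Cacna1c, the pore gene with the smaller gap between the cultures, and of Cacna2d1 and Cacna2d3, the α2δ genes whose values with Allo differed most between neuron libraries. The letters TGACG, the core that CREB-type factors are known to recognise, were searched on both strands and stand in capitals.
Cacna1c, chr4:154051749-154051998, minus strand: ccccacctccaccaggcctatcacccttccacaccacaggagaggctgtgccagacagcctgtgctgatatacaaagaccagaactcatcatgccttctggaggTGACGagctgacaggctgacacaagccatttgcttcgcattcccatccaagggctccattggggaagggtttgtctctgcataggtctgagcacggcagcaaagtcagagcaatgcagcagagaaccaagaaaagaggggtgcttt
Cacna2d1, chr4:20330148-20330397, minus strand: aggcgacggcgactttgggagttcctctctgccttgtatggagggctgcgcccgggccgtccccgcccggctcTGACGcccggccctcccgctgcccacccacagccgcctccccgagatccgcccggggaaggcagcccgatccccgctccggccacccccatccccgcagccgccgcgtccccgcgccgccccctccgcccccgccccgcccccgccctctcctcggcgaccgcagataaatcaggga
Cacna2d3, chr16:4918900-4919149, minus strand: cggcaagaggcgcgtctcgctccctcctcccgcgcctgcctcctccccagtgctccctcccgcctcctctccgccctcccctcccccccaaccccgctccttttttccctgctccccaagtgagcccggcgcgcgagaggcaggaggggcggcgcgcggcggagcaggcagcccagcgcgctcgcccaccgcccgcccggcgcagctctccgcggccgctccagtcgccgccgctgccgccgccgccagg
TGACG stood at position −146 relative to the start in Cacna1c and at −177 in this window of Cacna2d1. Of the 10 windows of these genes, 3 held it, the last being a window of Cacnb2 (chr17:82596542-82596791, plus strand) with the letters at −15. The windows of Cacna1d, Cacna2d2, Cacna2d3 and Cacnb3 did not hold it, nor did the other windows of Cacna2d1 and Cacnb2. Over all 33469 promoters of the table, 18.2% did. The full palindrome TGACGTCA, which contains the shorter motif, was in none of the 10 windows and in 1.59% of all promoters. A match is a description of letters, not a site shown to be bound.

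The pore and α2δ genes stood higher in neuron than in astrocyte cultures, whereas the β genes divided. Levels were set side by side as shares of a library's normalized counts, since the tables were normalized separately and no test compares them. Transcript lengths were not used here, so levels are compared for a gene between cultures and never between genes. The unit is the count per 1000000 normalized counts of the library (CPM). Cacna1c stood at 41.9 ± 3.66 CPM in neuron AM-Veh (SD, n = 4) and at 5.81 ± 0.661 in astrocyte AM-Veh (SD, n = 3), a ratio of 7.22. Cacna1d stood at 34.4 ± 1.71 in neurons and 0.975 ± 0.0998 in astrocytes, a ratio of 35.3. Both pore genes were thus lower in every astrocyte library than in any neuron library, and the gap was wider for Cacna1d.

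Among the α2δ genes, Cacna2d3 had the widest gap, at 31.7 ± 2.57 CPM in neurons and 0.739 ± 0.215 in astrocytes, a ratio of 42.9. Cacna2d2 was 3.94 times higher in neurons, at 22.9 ± 2.06 against 5.82 ± 0.935. Cacna2d1, the thrombospondin and gabapentin receptor, was closest, at 56.5 ± 3.50 against 32.2 ± 2.04, a ratio of 1.76.

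Among the β genes, Cacnb4 was far higher in neuron cultures, at 15.1 ± 1.21 CPM against 0.592 ± 0.0858 in astrocytes, a ratio of 25.6. Cacnb2 went the other way and was 2.90 times higher in astrocyte cultures, at 33.8 ± 0.948 against 11.7 ± 0.814. Cacnb1 was 1.70 times higher in neurons, at 43.7 ± 3.02 against 25.6 ± 2.79. Cacnb3 stood at 59.4 ± 4.55 in neurons and 65.5 ± 2.71 in astrocytes. The libraries lay close without overlap, with the highest of neuron AM-Veh at 62.8 and the lowest of astrocyte AM-Veh at 63.5. Because astrocyte markers were as abundant in the neuron cultures as in the astrocyte cultures, neither column is a pure cell type.

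**Figure D1:**
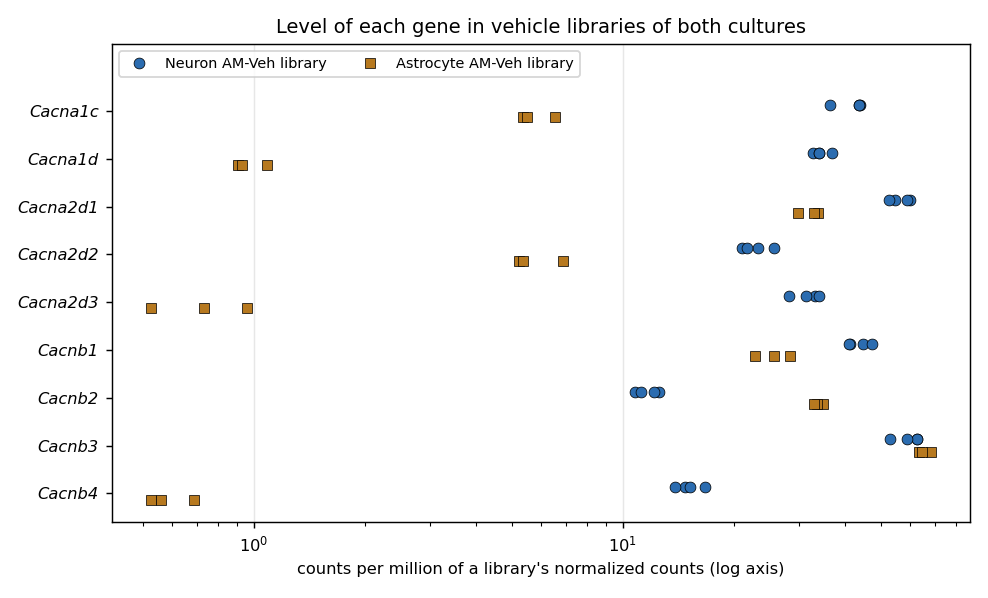
Level of each gene in the vehicle libraries, in CPM of a library's normalized counts on a log axis (circles, 4 neuron libraries; squares, 3 astrocyte libraries). The libraries of the 2 cultures lie well apart for each gene but Cacnb3, and Cacnb2 is clearly higher in astrocytes.

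In neurons, Cacna1c differed little with Allo. Its normalized counts were 967, 958, 813 and 976 in AM-Veh libraries 1-1, 1-2, 2-1 and 2-2, and 1001, 1001, 932 and 979 in the AM-Allo libraries of the same numbers. AM-Veh 2-1 was low, and the groups overlapped. The mean was 928 ± 77.2 in AM-Veh and 979 ± 32.5 in AM-Allo (SD, n = 4 each), a log2 fold change of 0.079 with a 95% interval of −0.056 to 0.21. Its unadjusted limma p was 0.223, and without AM-Veh 2-1 the log2 fold change was 0.017.

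Cacna1d, the pore that opens at more negative voltages, was steady. Its normalized counts were 810.0, 721, 759 and 759 in AM-Veh and 739, 789, 745 and 746 in AM-Allo. The libraries of both groups covered the same range. The log2 fold change was −0.014, with an interval of −0.12 to 0.092 and an unadjusted limma p of 0.775. The upper end of the interval is 1.16-fold for Cacna1c and 1.07-fold for Cacna1d.

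Cacna2d3 was the member with the clearest difference. Its normalized counts were 732, 688, 759 and 631 in AM-Veh and 704, 802, 942 and 957 in AM-Allo. AM-Allo 1-2, 2-1 and 2-2 were above every AM-Veh library, and AM-Allo 1-1 was below 2 of them, so the groups overlapped. The mean was 702 ± 55.9 in AM-Veh and 851 ± 120.1 in AM-Allo (SD, n = 4 each), a log2 fold change of 0.27 with a 95% interval of 0.053 to 0.49. It had an unadjusted limma p of 0.0195, a limma p of 0.761 adjusted by Benjamini-Hochberg over all genes and an exact two-sided permutation p of 0.0857. All 4 AM-Allo libraries lay above the AM-Veh mean. With a block for the first part of the replicate number, the unadjusted limma p was 0.00329 and the adjusted p 0.163. By limma, the unadjusted p was 0.0583 when AM-Veh 2-2 was left out, 0.0606 when AM-Allo 2-1 was and 0.0593 when AM-Allo 2-2 was, so each of these libraries decides the call.

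The remaining α2δ genes did not pass. Cacna2d1 had normalized counts of 1318, 1199, 1317 and 1175 in AM-Veh and 1244, 1164, 1493 and 1457 in AM-Allo. Its highest values were those of AM-Allo 2-1 and 2-2, and its lowest was AM-Allo 1-2. The log2 fold change was 0.091, with an interval of −0.087 to 0.27 and an unadjusted limma p of 0.282. Cacna2d2 had 512, 565, 469.6 and 485 in AM-Veh and 546, 481, 478 and 482 in AM-Allo, a log2 fold change of −0.030 (unadjusted limma p of 0.682). Its groups overlapped, with AM-Allo 1-1 apart from the other three.

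None of the β genes passed in neurons. Cacnb1 had 986, 1042, 923 and 917 normalized counts in AM-Veh and 918, 909, 953 and 917 in AM-Allo, a log2 fold change of −0.064 (unadjusted limma p of 0.219). Cacnb2, which has an isoform known to slow channel inactivation, had 276, 237, 249 and 271 in AM-Veh and 249, 226, 252 and 239 in AM-Allo. Its log2 fold change was −0.096 (unadjusted limma p of 0.235). For both genes no AM-Allo library exceeded the AM-Veh mean, yet the groups overlapped.

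Cacnb3 had 1376, 1381, 1317 and 1184 normalized counts in AM-Veh and 1306, 1330.1, 1454 and 1349 in AM-Allo, a log2 fold change of 0.050 (unadjusted limma p of 0.388). Cacnb4, the subunit mutated in the lethargic mouse, had 324, 335, 374 and 309 in AM-Veh and 369, 310.5, 418 and 400.2 in AM-Allo. Its log2 fold change was 0.15, with an interval of −0.065 to 0.37 and an unadjusted limma p of 0.151. The highest library of both genes was AM-Allo 2-1, and both groups overlapped. Without AM-Allo 1-2 the unadjusted limma p of Cacnb4 was 0.0168.

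**Figure D2:**
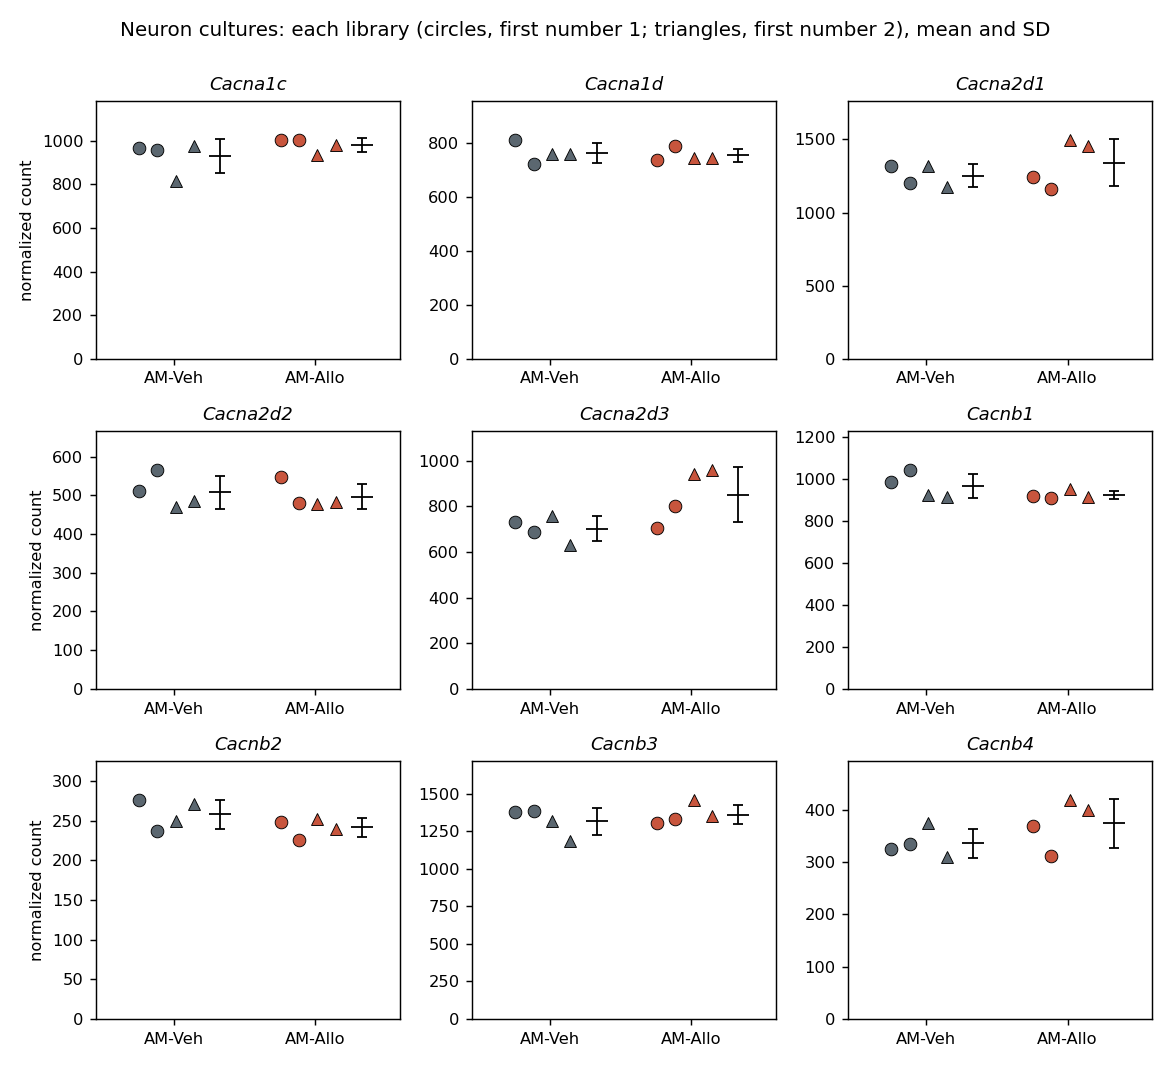
Normalized count of the 9 genes in each neuron library (circles, first number 1; triangles, first number 2; axes from 0), with the mean and SD of each group to the right of its points. The AM-Allo triangles stand above the other points for Cacna2d1, Cacna2d3 and Cacnb4, and the groups overlap for all 9 genes.

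In all, 1 of the 9 genes had an unadjusted p under 0.05 in neurons, against 5.69% of all 15314 genes tested, and none had an adjusted p under 0.05, against 0.0261% of all genes (4 of 15314). For 9 genes, 1 call is near the background. No member had groups that did not overlap, which 3.95% of all genes had. The median log2 fold change of the 9 was 0.050, beside −0.0015 over all genes tested. Marker values moved with the treatment as well. By limma at an unadjusted p under 0.05, Tubb3 (0.21) and Map2 (0.10) were higher and Nefl (−0.23) lower of the 9 neuron markers, and the interneuron markers Sst (−0.59) and Gad2 (−0.45) were lower, with log2 fold changes in parentheses. The mural marker Tagln (−0.31) was lower and the oligodendrocyte marker Cnp (0.091) higher, and no astrocyte marker passed. The summed neuron markers were 0.099 higher on the log2 scale, and their part in the values of Cacna2d3 was not tested.

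**Figure D3:**
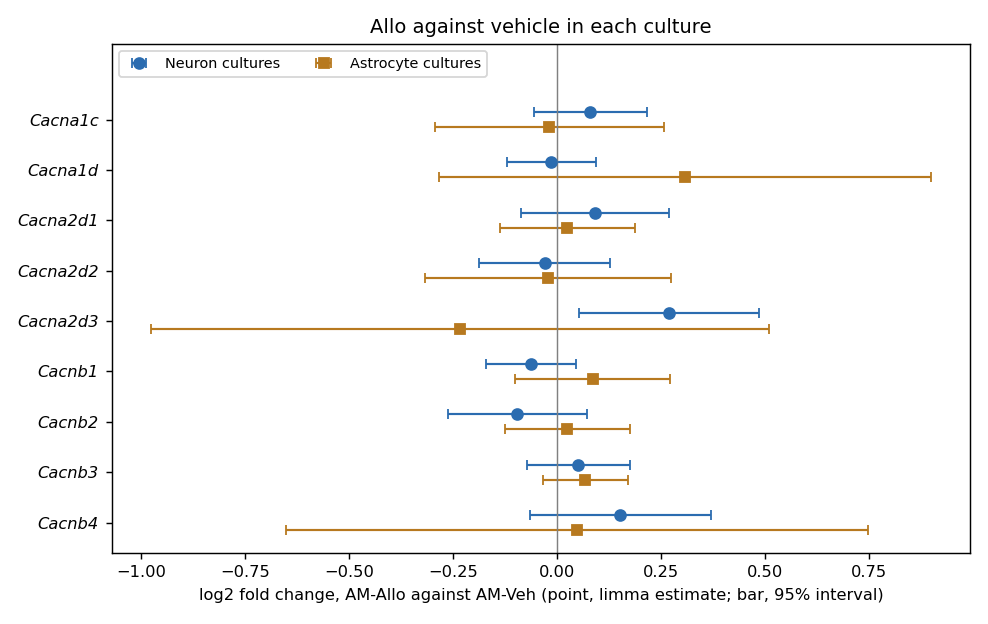
Log2 fold change of AM-Allo against AM-Veh for the 9 genes (points, limma estimates; bars, 95% intervals; circles, neurons; squares, astrocytes; vertical line, no difference). The interval of Cacna2d3 in neurons, from 0.053 to 0.49, is the only one that does not cross 0.

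The neuron libraries were then compared by the first part of their number, which the titles give. Libraries of the same number deviated together from their group means, with correlations over genes of 0.229 to 0.296, and those that shared the first number alone did so nearly as much, from 0.185 to 0.236. With treatment as a covariate, 2 of the 9 genes differed between first numbers at an unadjusted limma p under 0.05, against 29.3% of all genes. Cacna2d1 was higher in libraries of first number 2, by 0.14 on the log2 scale (unadjusted limma p of 0.0357). Cacna2d2 differed there by −0.13 (unadjusted limma p of 0.0367). None of the 9 passed after adjustment, against 17.2% of all genes. Leaving out single libraries gave 0 to 4 calls, with 4 without AM-Veh 2-2 and 0 without AM-Veh 1-2, AM-Veh 2-1, AM-Allo 1-1 or AM-Allo 2-1.

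Within libraries of first number 2, Cacna2d3, Cacna2d1, Cacnb4 and Cacnb3 were higher with Allo. Cacna2d3 went from a mean of 695 normalized counts in AM-Veh to 949 in AM-Allo there (n = 2 each), a log2 fold change of 0.46 with an interval of 0.29 to 0.63. Its p was 4.54e-05 unadjusted and 0.00818 adjusted over all genes by limma. Such p-values measure only the spread between libraries that share a first number, which may be technical. Cacna2d1 went from 1246 to 1475, a log2 fold change of 0.25 (limma p of 0.00104, adjusted p of 0.0550). Cacnb4 went from 341 to 409 (log2 fold change 0.27, unadjusted limma p of 0.0210) and Cacnb3 from 1251 to 1402 (log2 fold change 0.17, unadjusted limma p of 0.0186). That is 4 of 9 at the unadjusted threshold, against 12.5% of all genes, and 1 of 9 after adjustment, against 1.74%. For these 4 genes both AM-Allo libraries lay above both AM-Veh libraries, which 2 libraries against 2 readily give by chance. Cacna1d separated downward in the same set. In first number 1, Cacna1c separated upward, and Cacnb1 and Cacnb3 downward. The share of all genes so separated was not counted.

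In libraries of first number 1, none of these 4 genes was called. Cacna2d3 went from 709.7 to 753 (log2 fold change 0.083, unadjusted limma p of 0.278) and Cacna2d1 from 1259 to 1204 (−0.063, p of 0.299 by limma). The log2 fold change there was −0.065 for Cacnb3 and 0.037 for Cacnb4. Cacnb1 was the member called, from 1014 to 913 (log2 fold change −0.15, unadjusted limma p of 0.0176, adjusted p of 0.489). That is 1 of 9, against 7.97% of all genes, and none after adjustment, against 0.222%. Both pore genes had log2 fold changes between −0.026 and 0.10 in either set of libraries, and neither was called.

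The difference itself was tested with an interaction term, added after the values had been seen. The log2 fold change with Allo was more positive in first number 2 than in first number 1 for Cacna2d3 (log2 difference 0.37, interval 0.12 to 0.63, unadjusted limma p of 0.00704), for Cacna2d1 (0.31, interval 0.12 to 0.50, p of 0.00361 by limma), for Cacnb3 (0.23, p of 0.0122 by limma) and for Cacnb1 (0.17, p of 0.0396 by limma). Thus 4 of the 9 passed at the unadjusted threshold, against 9.53% of all genes, and none after adjustment over all genes, against 0.0784%. The adjusted p was 0.262 for Cacna2d1 and 0.324 for Cacna2d3. Of the calcium gene lists described below, 3 of 6 other pores, 2 of 7 other channel subunits and 3 of 17 regulators passed unadjusted too. For calcium stores and extrusion it was 2 of 19, and for thrombospondins 0 of 4. The terms of Cacna2d1 and Cacna2d3 kept an unadjusted p under 0.05 whichever library was left out. Those of Cacnb1 and Cacnb3 did not, that of Cacnb3 having an unadjusted limma p of 0.0725 when AM-Veh 2-2 was left out and 0.0655 when AM-Allo 2-1 was. That of Cacnb1 lost its call when any library but AM-Veh 1-1 or AM-Allo 2-2 was left out, with an unadjusted limma p of up to 0.145. The term of Cacnb4 did not pass (0.23, p of 0.153 by limma), and that of Cacna1c was 0.044 and of Cacna1d −0.025.

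Neuron markers moved the same way. Of the 9 tested, all had a positive interaction term, from 0.066 to 0.33, and 8 had an unadjusted limma p under 0.05, against 9.53% of all genes. Of the 9 interneuron markers tested 5 passed, with a median term of 0.40 beside 0.30 for neuron markers. For astrocyte markers and for mesenchymal and mural markers it was 2 of 10 each, and for oligodendrocyte lineage markers 1 of 10. Microglia and endothelial markers had 0 of 3 each. The summed neuron markers changed with Allo by 0.19 on the log2 scale in first number 2 and by 0.011 in first number 1. The summed astrocyte markers changed by −0.052 and 0.0012, the interneuron markers by −0.24 and −0.65, and the mesenchymal and mural markers by −0.33 and −0.080. The part of these markers in the values of Cacna2d3, Cacna2d1, Cacnb3 and Cacnb1 was not tested.

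**Figure D4:**
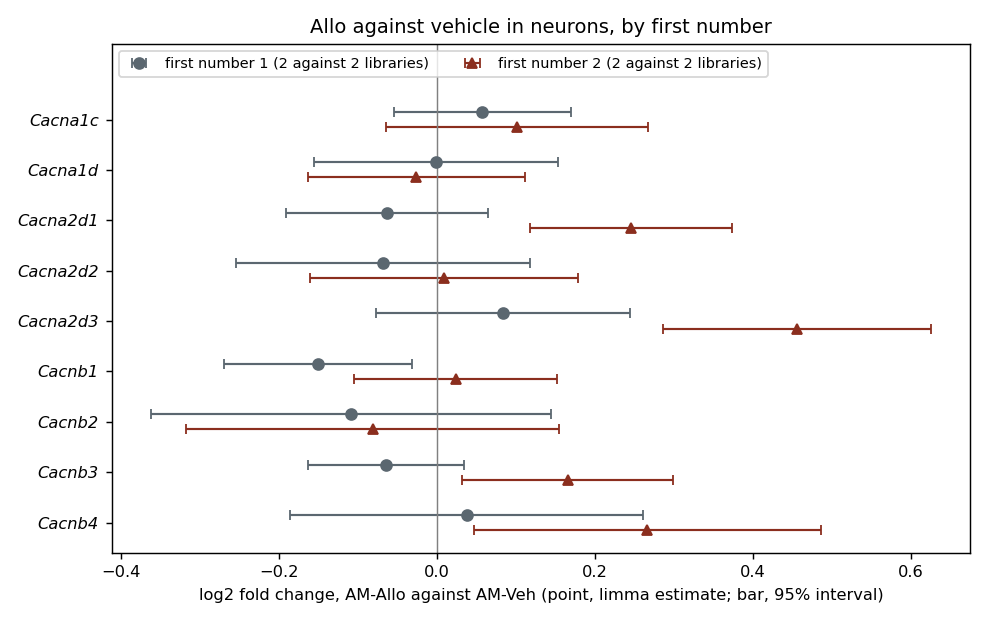
Log2 fold change of AM-Allo against AM-Veh within neuron libraries of first number 1 (circles) and first number 2 (triangles), 2 libraries against 2 each, as limma estimates with 95% intervals. Cacna2d1 and Cacna2d3 have triangles at 0.25 and 0.46 and circles at −0.063 and 0.083, while the markers of both pore genes lie close together.

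In astrocytes none of the 9 genes passed with Allo. At the unadjusted threshold this was 0 of 9 by limma, against 7.01% of the 15380 genes tested, and 0 of 9 after adjustment, against 0.0065%. No member had groups that did not overlap, which 12.5% of all genes had. The median log2 fold change of the 9 was 0.025, beside 0.0014 over all genes. An exact permutation test of 3 libraries against 3 cannot go under 0.1. Of the markers, Slc1a2 (−0.36) and S100b (−0.088) of astrocytes, Map2 (−0.13) and the microglial Cx3cr1 (−0.58) were lower and the mural Cnn1 (0.094) higher by limma at an unadjusted p under 0.05, with log2 fold changes in parentheses.

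Cacna1c had 156, 129 and 131 normalized counts in the AM-Veh libraries 1 to 3 and 129.9, 136 and 143 in the AM-Allo libraries, a log2 fold change of −0.019 with an interval of −0.29 to 0.26. The groups covered the same range. Cacna1d had 25.9, 21.7 and 22.2 in AM-Veh and 24.2, 38.9 and 25.7 in AM-Allo, a log2 fold change of 0.31 with an interval of −0.28 to 0.90 (unadjusted limma p of 0.282). AM-Allo 2 was high, and with so few reads the interval reaches from 0.821-fold to 1.87-fold.

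Cacna2d1 had 711, 809 and 786 normalized counts in AM-Veh and 813, 698 and 839 in AM-Allo (log2 fold change 0.025). Cacna2d2 had 124, 128 and 165 against 142, 134 and 132 (−0.022). Cacna2d3 had 12.5, 22.9 and 17.5 against 11.8, 18.7 and 13.6, a log2 fold change of −0.23 with an interval of −0.98 to 0.51. A change of the size seen for this gene in neurons could therefore not be detected in astrocytes at this depth.

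Of the β genes, Cacnb3 had 1632, 1522 and 1539 normalized counts in AM-Veh and 1610.0, 1718 and 1590.2 in AM-Allo. Its log2 fold change was 0.067, with an interval of −0.035 to 0.17 and an unadjusted limma p of 0.178, the lowest of the 9. Cacnb2 had 829, 803 and 789 against 922, 793 and 756 (log2 fold change 0.025), and Cacnb1 had 676, 547 and 613 against 640.4, 715 and 591 (0.085). Cacnb4 had 16.4, 13.5 and 12.6 against 14.9, 16.5 and 12.5 (0.048). The groups overlapped for all 4. The coefficient of variation in AM-Veh ran from 2.54% for Cacnb2 to 29.5% for Cacna2d3 in astrocytes and from 4.78% for Cacna1d to 8.31% for Cacna1c in neurons.

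**Figure D5:**
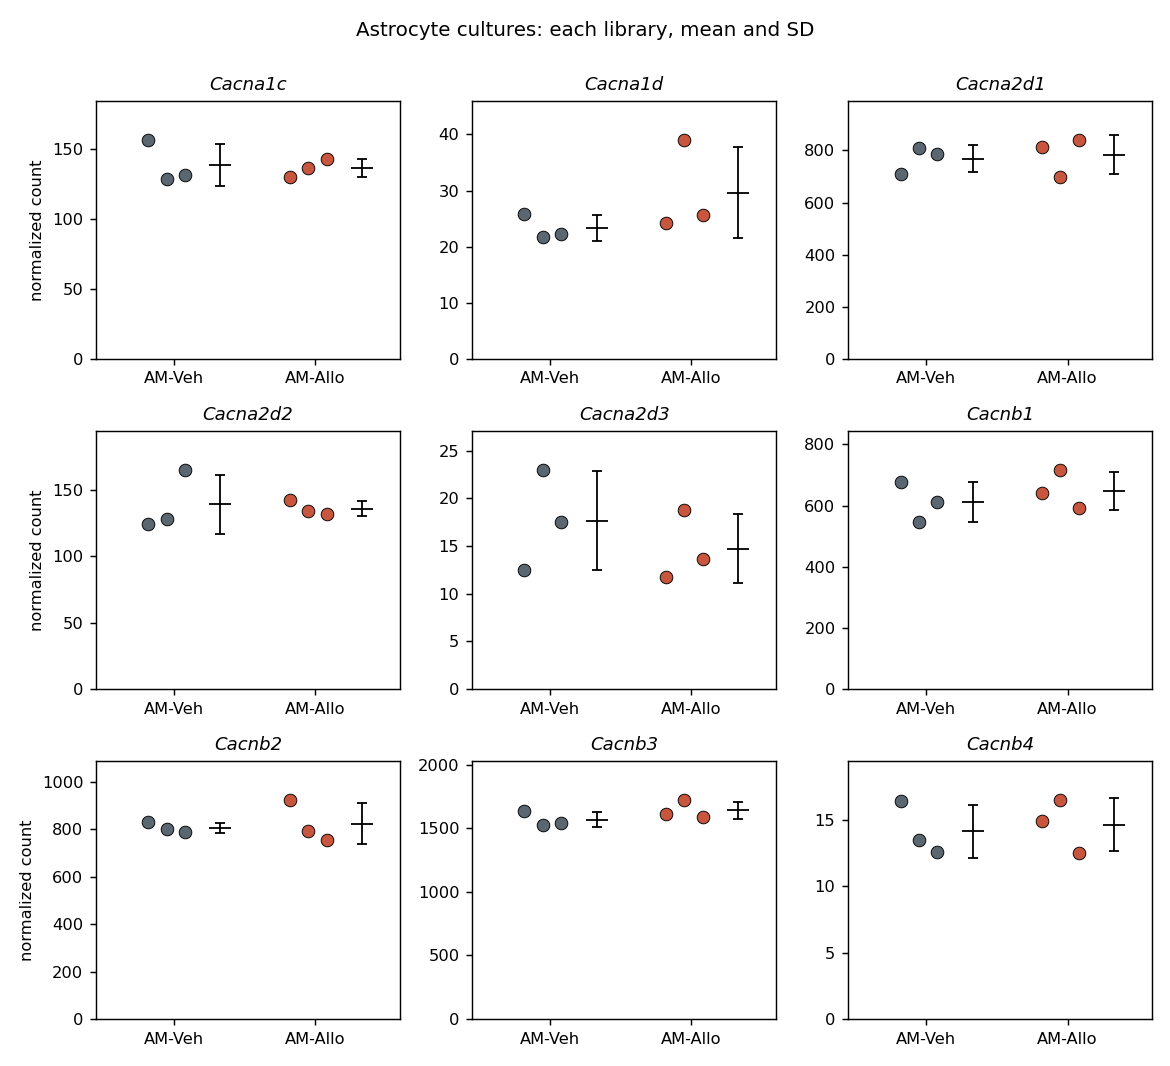
Normalized count of the 9 genes in each astrocyte library (axes from 0), with the mean and SD of each group to the right of its points. AM-Veh and AM-Allo overlap for all 9 genes, and the AM-Allo library of Cacna1d at 38.9 stands alone.

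The balance of the pore genes was followed as the log2 ratio of Cacna1c to Cacna1d within a library, which hardly depends on scaling. The ratio also holds the lengths of the transcripts, so only its differences are read. In neurons it was 0.25, 0.41, 0.099 and 0.36 in AM-Veh and 0.44, 0.34, 0.32 and 0.39 in AM-Allo, with no separation of the groups (exact two-sided permutation p of 0.286). In astrocytes it was 2.55, 2.52 and 2.51 in AM-Veh and 2.38, 1.78 and 2.43 in AM-Allo. In 3 of 3 AM-Allo libraries it fell below the lowest AM-Veh value, with a mean of 2.20 ± 0.36 against 2.52 ± 0.021 (SD, n = 3 each). The exact two-sided permutation p was 0.1, the smallest this design can give, and 0.2 adjusted over both cultures. Without AM-Allo 2 the difference of −0.33 became −0.12. Cacna1d stood at only 21.7 to 25.9 normalized counts in astrocyte AM-Veh, so the small SD of the ratio there rests on few reads. AM-Allo 1 and 3, at 24.2 and 25.7, lay within that range of Cacna1d. Taken singly, 12.5% of all genes in astrocytes had groups that did not overlap, and the share for ratios between genes was not counted. The ratio of the astrocyte libraries was above that of all neuron libraries, in which Cacna1d made up more of the pair.

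The Allo effect was also compared between cultures, as the log2 fold change in neurons minus that in astrocytes, bearing in mind that the treatment lasted 16 h in neurons and 24 h in astrocytes. The widest difference was that of Cacna2d3, at 0.50 (exact permutation p of 0.123 over 1400 relabellings, 0.614 adjusted over the 9). That of Cacna1d was −0.32 (exact permutation p of 0.167). None of the 9 had an exact permutation p under 0.05 on the normalized counts. The relabellings took no account of the grouping of neuron libraries by number. The variance-stabilized values are on a compressed scale, and the difference between first numbers had been removed from those of neurons. With them, the difference of Cacna2d3 was 0.19 on that scale, with an exact permutation p of 0.0243. On the normalized counts without astrocyte AM-Veh 1, its exact permutation p was 0.0371.

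Around the channel, other genes of calcium handling were read from 5 lists. The lead was Rem2, a GTPase of the RGK family that is known to inhibit voltage-gated calcium channels through their β subunit. Its normalized counts were 88.2, 52.0, 55.1 and 63.9 in neuron AM-Veh and 29.9, 32.0, 25.5 and 35.3 in AM-Allo, so all 4 AM-Allo libraries lay below every AM-Veh library. It fell by 1.03 on the log2 scale (interval −1.46 to −0.60), with a limma p of 0.000289 unadjusted and 0.233 adjusted over all genes. With the block by first number the adjusted limma p was 0.0233, and with the block by whole number 0.0293. Within first number 1 its log2 fold change was −1.11 and within first number 2 −0.96. In astrocytes Rem2 had a mean under 10 and was not tested.

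Of the 17 regulators and scaffolds tested in neurons, 1 rose and 2 fell at an unadjusted limma p under 0.05, against the 5.69% of all genes. Beside Rem2 these were Stac (log2 fold change −0.73), an adaptor that binds L-type pores and slows their inactivation, at 18.5 ± 2.74 against 11.3 ± 4.67 normalized counts (SD, n = 4 each), and Rimbp2 (0.13), which ties calcium channels to vesicle release sites. The calmodulin genes, whose product mediates calcium-dependent inactivation, were among the 14 that did not pass. By limma, Stac kept its call only when the library left out was AM-Veh 1-2 or an AM-Allo library of first number 2, and Rimbp2 only when it was AM-Veh 1-1, AM-Veh 2-1, AM-Allo 1-1 or AM-Allo 2-2. Those fits held no block. With the block by first number, the unadjusted limma p was 0.0186 for Stac and 0.0173 for Rimbp2 (adjusted p of 0.330 and 0.322).

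Of the 6 other pore genes tested in neurons, 1 rose and 1 fell at an unadjusted limma p under 0.05, against 5.69% of all genes called in either direction. Cacna1e, the R-type pore, had 625, 593, 600.1 and 603 normalized counts in AM-Veh and 664, 651, 785 and 772 in AM-Allo, with no overlap between the groups. Its log2 fold change was 0.24 (limma p of 0.00465, adjusted p of 0.589). With the block by first number its limma p was 0.000588 unadjusted and 0.0704 adjusted. As with Cacna2d3, the AM-Allo libraries of first number 2 were the highest, and its interaction term was 0.26 (unadjusted limma p of 0.00981). Cacna1a, the P/Q-type pore, was lower (log2 fold change −0.085, unadjusted limma p of 0.0359), a call that held only without AM-Veh 1-2 or AM-Allo 2-1 when single libraries were left out. With the block by first number its limma p was 0.0153 unadjusted and 0.311 adjusted. The L-type pores of muscle and retina, Cacna1s and Cacna1f, had means under 10 in both cultures.

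Of the 19 genes of calcium stores and extrusion tested in neurons, 3 rose and none fell at that threshold, which 5.69% of all genes passed. Stim2, the calcium sensor of the endoplasmic reticulum, was higher (log2 fold change 0.13, unadjusted limma p of 0.00757), as were the IP3 receptor Itpr2 (0.091, p of 0.0151 by limma) and the ryanodine receptor Ryr3 (0.20, p of 0.0428 by limma). The AM-Allo libraries of Stim2 and Itpr2 did not overlap with AM-Veh, and those of Ryr3 did. From the study's calcium list, Atp2b3 (0.19, p of 0.0505 by limma), Ryr2 (0.17, p of 0.102) and Slc8a2 (0.11, p of 0.108) were not called here. The block by first number gave Atp2b3 an unadjusted limma p of 0.0289 and an adjusted p of 0.386. With single libraries left out and no block, Ryr3 kept its call by limma only when it was AM-Veh 2-1, AM-Allo 1-1 or AM-Allo 1-2. With the block by first number, the unadjusted limma p was 0.00114 for Ryr3, 0.00216 for Stim2 and 0.00847 for Itpr2. The adjusted p was then 0.103, 0.131 and 0.247. None of the 7 other channel subunits tested and none of the 4 thrombospondin genes tested passed. After adjustment none of these genes passed in neurons without a block. Over the 5 lists together 8 genes were called, and with the replicate number taken up as a block, by first number or by whole number, 13 and 14 were. Calls over all 15314 genes rose alike, from 872 to 1684 and 1634.

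In astrocytes, 1 of 17 regulators and scaffolds and 1 of 18 genes of stores and extrusion passed at the unadjusted threshold, against 7.01% of all genes. Stac2 was higher (log2 fold change 0.11, unadjusted limma p of 0.0484), a call lost without any library other than AM-Allo 1. The calcium pump Atp2b3 was lower (−0.66, unadjusted limma p of 0.0321), from 35.0 ± 6.24 to 21.9 ± 4.77 normalized counts (SD, n = 3 each), and the call was lost without AM-Veh 1, AM-Veh 3 or AM-Allo 2. None of the 5 other pore genes, 5 other subunits and 5 thrombospondins tested there passed. Thrombospondins bind the α2δ subunit of Cacna2d1, and their genes differed in level between the cultures to unequal degrees, in tables normalized separately. Thbs1 had a mean of 79867 normalized counts in astrocyte AM-Veh (n = 3) beside 186 in neuron AM-Veh (n = 4), whereas Thbs3 had 698 ± 37.5 beside 624.9 ± 60.9 (SD).

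Genes whose log2 values ran closest to a member over the libraries of a culture are given as a description, among 11751 genes in neurons with a mean of at least 100. For Cacna2d3 they were Atg13 (Pearson r = 0.973), Zfp575 (0.969) and LOC100911581 (0.963) over 8 libraries. For Cacna1c they were Zbtb2 (0.979), Enah (0.967) and Polr1c (0.959), with Spearman's rho of 0.952, 0.571 and 0.810 over 8 libraries that include the low AM-Veh 2-1 value. Those for Cacna1d were Osbpl2 (0.963), Acad9 (0.898) and Dpp3 (0.892). In astrocytes, over 6 libraries and 11762 genes, those closest to Cacna1c were Pcgf6 (0.994), Mterf1 (0.988) and Mapk12 (0.983). The points of each pair share libraries and their scaling.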

How the data were processed

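RNA-seq values of 8 neuron and 6 astrocyte libraries were used. The authors made stranded poly(A) libraries, sequenced them as paired ends, estimated transcript abundance against Ensembl release 95 by Salmon 0.14, collapsed it to genes (tximport) and scaled it by DESeq2 1.18.1. The deposited normalized count tables, a signal per gene after division by the authors' scaling factors, were the main input, 1 per culture. The deposited variance-stabilized values of the authors, on a scale closer to log2 at high counts and compressed at low counts, were an alternative. With the block by first number, the neuron difference of Rem2 with Allo was −1.03 on log2 normalized counts and −0.205 on the variance-stabilized scale. For the more abundant Itpr2 it was 0.091 and 0.072. Differences on the variance-stabilized scale are therefore not read as log2 fold changes. In the neuron table of variance-stabilized values, the means of libraries of first number 1 and 2 were equal in 18239 of 18239 genes (tolerance 1e-06). They were equal in 0 genes of the normalized counts, so the difference between first numbers had been removed from the variance-stabilized table.

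Whole reads were not recovered for nearly all genes (69.0% to 95.1% of low values were whole within 0.15 of a read), so no count test was run. A pseudocount of 1 was added, log2 values were taken, and genes with a mean of at least 10 in a culture were tested with limma 3.58.1 (lmFit, eBayes with trend) in R 4.3.3, which was tested on simulated data. Adjusted p-values are Benjamini-Hochberg values across every gene tested. Fold changes on this scale understate the change of low genes. Called means an unadjusted p under 0.05, the study's own threshold. Exact two-sided permutation tests (scipy 1.17.1) had a smallest p of 0.0286 for 4 libraries against 4 and 0.1 for 3 against 3.

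Each correlation of same-numbered neuron libraries exceeded 0.1, the mark set for pairing. Libraries sharing the first number alone exceeded it too (0.185 to 0.236). The correlations thus show a grouping by first number and do not settle pairs by whole number. Those of same-numbered astrocyte libraries ran from −0.00698 to 0.0241, below that mark. The interaction term and the block with variance-stabilized values were added after seeing the data. The members, lists, tests and alternatives were chosen with earlier results of these data known. Named were all 9 genes, up to 3 genes per calcium list and culture with an unadjusted p under 0.05, the most abundant gene of marker lists and the 3 genes most like Cacna1c, Cacna1d and Cacna2d3. Further marker genes, Thbs1 and Thbs3 were chosen after their values were seen. In neurons, Atp2b3, Ryr2 and Slc8a2 were named because the study's list held them. Snap25 and the other list members without a row were not analysed here.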

Additional observations from a re-analysis of the deposited data

Results flagged for a closer look

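Of the 18 neuron groups of 4 libraries checked for the 9 genes, 3 held a library far from the others by Dixon's test at its 95% critical value, which chance passes in about 5% of groups. Cacna1c stood at 813 normalized counts in AM-Veh 2-1, below the other libraries of its group. Cacna1d stood at 789 in AM-Allo 1-2 and Cacna2d2 at 546 in AM-Allo 1-1, each above the others. They are 3 different libraries.

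The effect of Allo differed between neuron libraries of first number 2 and 1 at an unadjusted limma p under 0.05 for 4 of the 9 genes, by 0.31 on the log2 scale for Cacna2d1, 0.37 for Cacna2d3, 0.17 for Cacnb1 and 0.23 for Cacnb3. None passed after adjustment over all genes. Neuron markers and most interneuron markers moved with it, and what the first number marks is not given in the sources used here.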

How the results depend on the processing

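The direction of Cacna2d3 in neurons was the same under all alternatives run, and its call was lost when AM-Veh 2-2, AM-Allo 2-1 or AM-Allo 2-2 was left out and within first number 1. The number of the 9 genes called in neurons was 1, 0 to 2 with single libraries left out, and 4 within first number 2. With the replicate block by whole number or by first number it stayed at 1, Cacna2d3 (unadjusted limma p of 0.00452 and 0.00329). The block changed no other member's call, and none in astrocytes. Over all genes in neurons, adjusted calls numbered 4, against 93 and 104 with these blocks, 145 with the variance-stabilized values, 104 with these and the block, 0 with no trend and 0 to 4 with single libraries left out. In astrocytes they were 1, against 17 with the block, 4 with robust fitting, 0 with no trend or a minimum mean of 50 and 1 to 72 with libraries left out.

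Pathway genes called in neurons were 8, against 15 with the variance-stabilized values, 14 and 13 with the blocks by whole and first number, 14 with these values and the block by first number, 17 within first number 2 and 5 to 8 with libraries left out. Over all genes, unadjusted calls were 872, against 2442 with the variance-stabilized values, 1634 and 1684 with the blocks, 1837 with these values and the block and 1918 within first number 2. Pathway genes called in astrocytes were 2, against 1 with a minimum mean of 50, upper-quartile scaling or quantile normalization. They were 5 with no trend and 1 to 5 with libraries left out. Unadjusted calls over all genes in astrocytes were 1078, against 914 with a minimum mean of 50, 1077 with upper-quartile scaling and 1044 with quantile normalization. They were 994 with no trend and 786 to 1280 with libraries left out. Members called between first numbers were 2, against 1 with upper-quartile scaling, quantile normalization, no trend, robust fitting or no treatment covariate, and 0 to 4 with libraries left out. For the interaction they were 4, and 2 to 4 with libraries left out. Members that differed between cultures were 0, against 1 (Cacna2d3) with the variance-stabilized values on their compressed scale, and 0 to 1 with libraries left out. The causes were not tested.

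Some directions turned. Within first number 1, Cacna2d1 was −0.063 and Cacnb3 −0.065, and within first number 2, Cacna2d2 was 0.0087 and Cacnb1 0.023. Of these, Cacna2d1 and Cacnb3 were called within first number 2 and Cacnb1 within first number 1. The difference between cultures of Cacna2d2 was 0.0017 with upper-quartile scaling. With libraries left out, neuron values ran from −0.040 to 0.015 for Cacna1d and −0.076 to 0.022 for Cacna2d2. Astrocyte values ran from −0.071 to 0.069 for Cacna1c, −0.031 to 0.11 for Cacna2d1, −0.098 to 0.10 for Cacna2d2, −0.059 to 0.084 for Cacnb2 and −0.036 to 0.15 for Cacnb4. Between first numbers they ran from −0.058 to 0.0087 for Cacna1d, −0.0018 to 0.085 for Cacnb2 and −0.072 to 0.026 for Cacnb3. The interaction ran from −0.087 to 0.18 for Cacna1c, −0.11 to 0.059 for Cacna1d, −0.015 to 0.17 for Cacna2d2 and −0.080 to 0.14 for Cacnb2. Differences between cultures ran from −0.014 to 0.13 for Cacna2d1, −0.13 to 0.068 for Cacna2d2, −0.066 to 0.017 for Cacnb3 and −0.000414 to 0.19 for Cacnb4.

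Not run were levels per transcript or coding length, since no lengths were used here, and the variance-stabilized values between first numbers, whose difference had been removed. The interaction rests on 2 libraries for each treatment and first number. In astrocytes, Cacna1d, Cacna2d3 and Cacnb4 stand at 11.8 to 38.9 normalized counts per library, which widens their intervals.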
